A study of Caenorhabditis elegans with 8 samples.

Results

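Sperm genes were followed here in whole Caenorhabditis elegans. They comprise the protein-coding genes of the deposited table whose names are msp, ssp, spe or nspd followed by a number, together with gsp-3 and gsp-4. This rule took 80 of 46904 genes, namely 31 msp, 12 ssp, 25 spe, 10 nspd and 2 gsp genes. It used gene names alone and no measured value. All worms were of the strain CL2006, which carries a human amyloid beta minigene driven by the body wall muscle promoter of unc-54 and a rol-6 roller marker. They grew at 20 °C on bacteria carrying an empty vector or a cpr-6 RNAi construct, over 2 generations, were moved daily away from their progeny, and were collected as pools at day 6 of adulthood. The labels give the genotype as wild type beyond the strain, so that both groups share the transgene and differ in the RNAi construct alone. Each group has 4 libraries, which the series text calls biological repeats. The labels state no sex.

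In the C. elegans hermaphrodite, the germ line makes sperm late in larval life and then switches to oocytes, and the sperm are stored in the spermatheca until they are used up or displaced. Spermatids transcribe almost nothing, so sperm transcripts are made in spermatocytes and carried over. The major sperm proteins (msp genes) form the filaments that let the crawling sperm move and also signal to oocytes to mature. The ssp genes encode small proteins with a single major sperm protein domain. The spe genes were named from mutants whose sperm fail, and gsp-3 and gsp-4 encode protein phosphatases of sperm. The nspd genes encode short nematode-specific peptides.

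Libraries were made with CEL-Seq2, which reads the 3′ ends of polyadenylated transcripts, and held 8184412 to 12506320 counts. Levels are given as CPM, which are counts scaled for library size and comparable between libraries for a gene, with the SD over 4 libraries. In the cpr-6 RNAi libraries, cpr-6, a cathepsin B-like protease gene, stood at 81.7 ± 14.7 CPM (SD, n = 4) against 758 ± 22.5 CPM (SD, n = 4) with empty vector, and edgeR gave it a log2 fold change of -3.22 ± 0.114 (SE). The cpr-6 RNAi replicate 4 library was separated from the rest on the main axis of variation over all genes, with a score of 40.7 against -19.7 to 5.16. In bulk RNA of this kind, fewer sperm and less RNA per sperm cannot be told apart.

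Transcripts of the sperm genes were present at day 6, but few were counted often. The 80 genes together collected 24777 counts over the 8 libraries. Of these counts, 15352 were of spe-5, spe-39, spe-44 and spe-48, and 2205 were of ssp-37. Whether the RNA of these genes came from sperm was not tested. Of the 80 genes, 51 had a count in every library, 27 had under 24 counts in total, and 5 of these 27 had none. Those at 0 were msp-32, msp-53, msp-58, msp-74 and nspd-8, which allows up to 0.0363 CPM for each over the 8 libraries, counting error only. A few genes carried most of the counts. The genes spe-48, spe-39, spe-44 and spe-5 held 94.1% of the 16310 counts of the spe genes, and ssp-37 held 69.1% of the 3193 counts of the ssp genes. Among the msp genes the counts were spread more widely: msp-59 held 14.5% of 4153 counts, and msp-31, msp-3 and msp-76 held 7.61%, 6.77% and 6.77%.

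**Figure D1:**
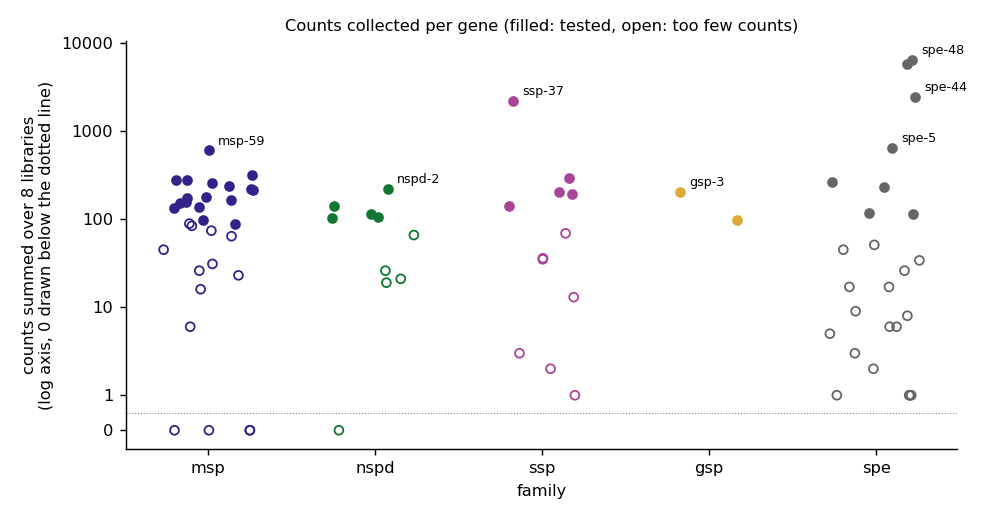
Counts summed over the 8 libraries (vertical log axis) for each sperm gene, by family (horizontal axis). Filled points are the 37 genes that could be tested and open points are the 43 with too few counts. The spe genes run from 1 count to the 6440 of spe-48, and 4 msp genes and 1 nspd gene lie at 0.

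No sperm gene changed past the test under cpr-6 RNAi. A filter on low counts kept 37 of the 80 genes, namely 17 msp, 5 nspd, 5 ssp, 8 spe and 2 gsp genes. Of these 37, edgeR's quasi-likelihood test called 0 at an adjusted p of 0.05, against 0.00915% of all 10932 genes tested, and DESeq2 and limma voom each called 0 of the 37 too. At an unadjusted p under 0.05 edgeR had 1 of the 37, spe-6, against 3.85% of all genes tested. It was lower, where 1.46% of all genes tested had such a p, and 0 of the 37 were higher, where 2.39% did. The same gene was the only one of the 37 whose groups did not overlap, against 2.52% of all genes tested. The log2 fold change lay above 0 for 29 of the 37 genes, against 50.2% of all genes tested, with a median of 0.19 against 0.00058 over all genes. That count is not 37 separate observations. Several of these genes share a protein name, and most msp and nspd genes share their lowest and highest libraries. With empty vector replicate 1 left out the median was 0.02, with 23 of 42 genes above 0. With cpr-6 RNAi replicate 4 left out it was 0.03, with 23 of 38 above 0.

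The fold changes of sperm genes were estimated less precisely than those of the median gene. The 95% interval of the fold change had a median half-width of 0.77 on the log2 scale over the 37 genes, against 0.33 over all genes tested, and lay within 2-fold in either direction for 14 of the 37. It was narrowest for spe-39 at 0.21 and widest for msp-64 at 1.19. The filter asked for a minimum level in at least 4 libraries and was not set on total counts alone. Here it fell near 89 counts: msp-49 and msp-152 both had 89, and the first was tested and the second was not. The gene msp-63 with 84 stayed out and msp-64 with 97 came in.

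**Figure D2:**
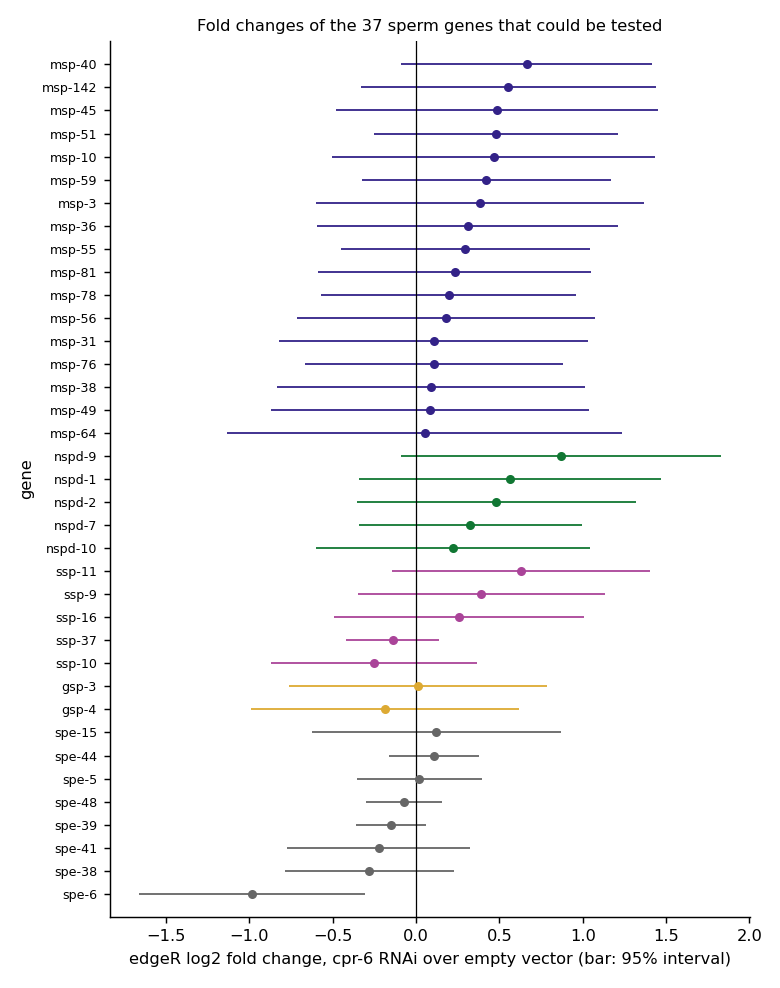
The log2 fold change in edgeR (horizontal axis, cpr-6 RNAi over empty vector) of the 37 sperm genes that could be tested, coloured by family, with bars for the 95% interval. The interval of spe-6, -1.66 to -0.31, is the only one that leaves out 0.

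The msp genes varied about 4-fold between libraries and overlapped between the groups. Their summed level was 22.2, 40.6, 65.3 and 51.7 CPM in empty vector replicates 1 to 4, and 46.6, 58.0, 30.5 and 91.0 CPM in cpr-6 RNAi replicates 1 to 4. Empty vector replicate 1 was the lowest of the 8 and cpr-6 RNAi replicate 4 the highest, and the other 6 were interleaved. The highest library stood 4.11-fold above the lowest. Group means were 44.96 ± 18.2 CPM (SD, n = 4) for empty vector and 56.5 ± 25.6 CPM (SD, n = 4) for cpr-6 RNAi, a log2 ratio of 0.33. The means differed by less than the SD of either group. Leaving out cpr-6 RNAi replicate 4 brought the ratio to 0.0022 and leaving out empty vector replicate 1 brought it to 0.11. It was 0.57 when the third empty vector library was left out, and 0.54 when the third cpr-6 RNAi library was. Within replicates 1 and 2 it was 0.74, and within replicates 3 and 4 it was 0.05.

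**Figure D3:**
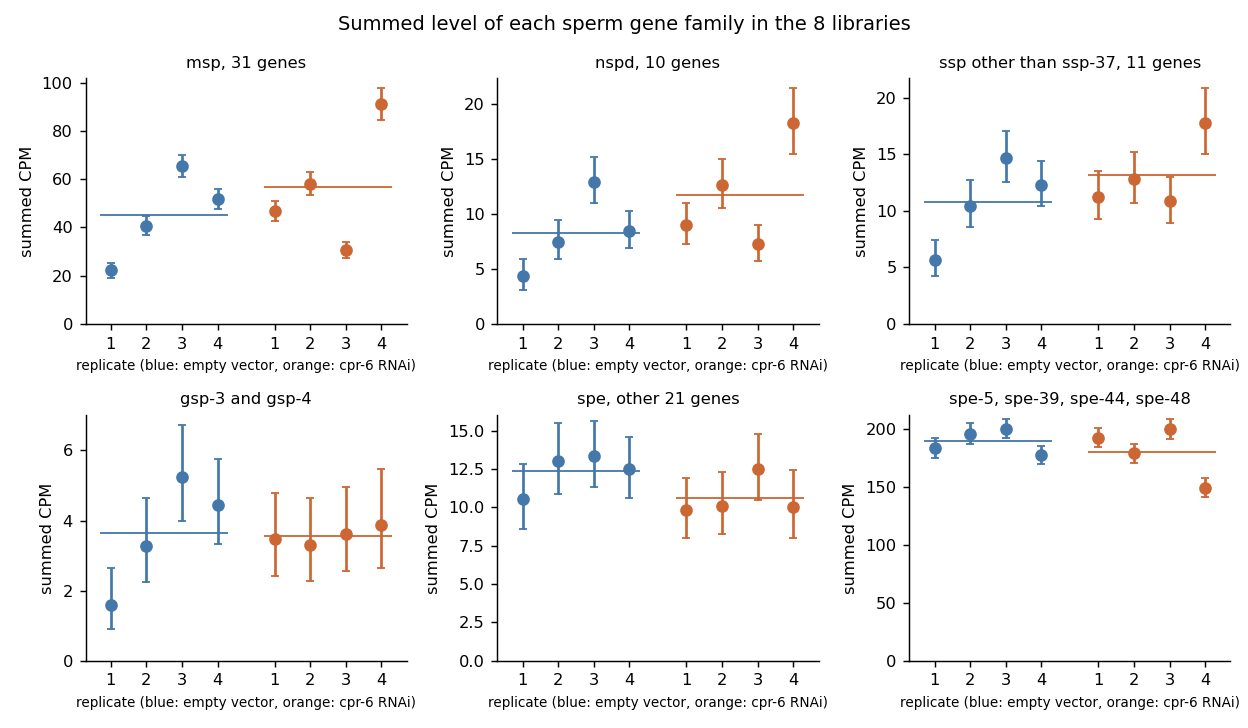
Summed CPM of each sperm gene family (vertical axes, from 0) in the 4 empty vector libraries (blue) and the 4 cpr-6 RNAi libraries (orange), by replicate number. Bars are exact 95% Poisson intervals for counting error only and lines are group means. The msp, nspd and smaller ssp sums share a low point in empty vector replicate 1 and a high point in cpr-6 RNAi replicate 4, while the sum of spe-5, spe-39, spe-44 and spe-48 is lowest in cpr-6 RNAi replicate 4, at 149 CPM.

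Most single msp genes followed the sum, of which they are part. Of 22 with 40 or more counts, 15 were lowest in empty vector replicate 1 and 17 were highest in cpr-6 RNAi replicate 4. The gene with the most counts, msp-59 (WBGene00003452; WBcel235 chromosome IV, 5312693 to 5313149, minus strand), stood at 3.09, 4.82, 9.09 and 7.81 CPM in empty vector replicates 1 to 4 and at 5.97, 9.81, 5.66 and 12.6 CPM in cpr-6 RNAi replicates 1 to 4. Its groups overlapped, with the same lowest and highest libraries as the sum. The log2 fold change was 0.42, with a 95% interval of -0.33 to 1.17 and an adjusted p of 0.997 in edgeR. For msp-40 the levels were 1.17, 1.85, 3.26 and 1.93 CPM with empty vector and 2.60, 3.70, 1.86 and 5.20 CPM with cpr-6 RNAi. Its groups overlapped, and its log2 fold change of 0.66 (95% interval -0.09 to 1.42) was the highest of the 17 msp genes tested. The 17 ran from 0.05 for msp-64 to 0.66, all above 0, with a median of 0.29. In limma voom, 15 of the 17 lay above 0. Without empty vector replicate 1, 12 of 20 msp genes that then passed the filter lay above 0 (median 0.02), and without cpr-6 RNAi replicate 4, 11 of 18 did (median 0.03).

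Reads of the msp genes may not belong to the gene they were counted for. The deposited descriptions give 12 of the 31 msp genes a single protein name between them (msp-19, msp-31, msp-40, msp-45, msp-50, msp-51, msp-53, msp-59, msp-64, msp-65, msp-113 and msp-142). They also pair msp-55 with msp-57 and msp-77 with msp-79, and join msp-10, msp-36, msp-56 and msp-76. The name shared by the 12 also lists msp-81, whose own description differs and which, with 177 counts, is not among the 12. Summing the 12 takes away the split of counted reads among them, but not a split with msp-81. The 12 stood at 21.1 ± 8.37 CPM (SD, n = 4) with empty vector and 28.4 ± 12.7 CPM (SD, n = 4) with cpr-6 RNAi, a log2 ratio of 0.43. Their range of 4.28-fold over the 8 libraries was close to that of the whole family. How reads that fit several genes were handled is not given in the sources used here.

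Among the 41 msp and nspd genes, most of those at 0 had a span equal to their coding length. In 35 of these 41 genes the span in the deposited table runs past the coding length (384 bases for most msp genes in Ensembl release 115), and 1 of the 35, msp-53, was at 0. In the other 6 the span equals the coding length, and 4 of the 6, msp-32, msp-58, msp-74 and nspd-8, were at 0. The remaining genes of those 6 were msp-31, with 316 counts, and msp-45, with 215, and the span of each overlaps another gene on the same strand, aagr-2 and srb-13. A span that ends with the coding sequence leaves out the 3′ end that CEL-Seq2 reads. The coding length itself was shorter in some of those at 0, with 234 bases for msp-58 and msp-74 and 360 for msp-32. Span lengths alone do not show at which end the longer spans run on. The part of span or coding length in the zeros was not tested.

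The nspd genes had a similar profile over the libraries. Summed, they stood at 4.37, 7.49, 12.9 and 8.46 CPM in empty vector replicates 1 to 4 and at 8.96, 12.6, 7.23 and 18.3 CPM in cpr-6 RNAi replicates 1 to 4. Again empty vector replicate 1 was lowest and cpr-6 RNAi replicate 4 highest, 4.18-fold apart, and the groups overlapped. The means were 8.32 ± 3.54 and 11.8 ± 4.87 CPM (SD, n = 4 each), a log2 ratio of 0.50 that was 0.21 without cpr-6 RNAi replicate 4. The gene with the most nspd counts, nspd-2, ran from 1.28 to 3.43 CPM with empty vector and from 1.48 to 5.44 CPM with cpr-6 RNAi. The highest fold change of the 37 genes was that of nspd-9, at 0.43, 1.03, 1.54 and 0.64 CPM with empty vector and 1.06, 1.70, 1.02 and 3.14 CPM with cpr-6 RNAi. The groups of nspd-9 overlapped, and its log2 fold change was 0.87 (95% interval -0.09 to 1.83; edgeR adjusted p 0.997). Leaving out cpr-6 RNAi replicate 4 brought it to 0.44 and leaving out empty vector replicate 3 to 1.26.

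The ssp genes divided between ssp-37 and the rest. The level of ssp-37 was 32.1, 25.8, 23.7 and 30.5 CPM with empty vector and 21.4, 24.4, 26.9 and 29.1 CPM with cpr-6 RNAi. It was highest in empty vector replicate 1, the library in which the msp genes were lowest, and its groups overlapped (log2 fold change -0.14, 95% interval -0.42 to 0.14). The deposited table annotates ssp-37 with defence against Gram-negative bacteria, unlike the other ssp genes. The other 11 ssp genes summed to 5.65, 10.5, 14.7 and 12.3 CPM with empty vector and to 11.3, 12.8, 10.9 and 17.8 CPM with cpr-6 RNAi. As with msp and nspd, the lowest was empty vector replicate 1 and the highest cpr-6 RNAi replicate 4. The log2 ratio of these 11 was 0.29 (10.8 ± 3.82 against 13.2 ± 3.18 CPM, SD, n = 4 each), and 0.08 to 0.47 with each library left out in turn. Single genes lay on both sides of 0, from -0.25 for ssp-10 to 0.63 for ssp-11.

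The phosphatase genes gsp-3 and gsp-4 shared the low point but not the high one. Their sum was 1.60, 3.28, 5.23 and 4.43 CPM with empty vector and 3.47, 3.304, 3.62 and 3.87 CPM with cpr-6 RNAi. The 4 cpr-6 RNAi libraries lay close together, inside the range of the empty vector libraries. For gsp-3 (2.38 ± 1.38 against 2.46 ± 0.445 CPM, SD, n = 4 each) the log2 fold change was 0.01, and for gsp-4 (1.26 ± 0.552 against 1.10 ± 0.251 CPM, SD, n = 4 each) it was -0.19. The span of gsp-4 overlaps T03F1.6 on the same strand.

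The spe genes with many counts were steady between libraries. Together spe-5, spe-39, spe-44 and spe-48 stood at 184, 196, 200 and 177 CPM with empty vector and 193, 179, 200 and 149 CPM with cpr-6 RNAi, a range of 1.34-fold with cpr-6 RNAi replicate 4 lowest. The gene spe-39, which acts in vesicle traffic and in the building of sperm organelles, had levels of 73.6 ± 6.03 and 66.2 ± 6.57 CPM (SD, n = 4 each). Its log2 fold change was -0.15 (95% interval -0.36 to 0.06). For spe-48, needed for sperm to crawl, levels were 79.5 ± 4.37 and 75.5 ± 10.7 CPM (SD, n = 4 each), with a log2 fold change of -0.07 (95% interval -0.30 to 0.15). The transcription factor gene spe-44, which acts in developing spermatocytes, stood at 28.6 ± 2.32 and 30.7 ± 5.08 CPM (SD, n = 4 each) with 0.11 (95% interval -0.16 to 0.38). For spe-5, a vacuolar proton pump subunit gene, levels were 7.69 ± 0.437 and 7.77 ± 1.63 CPM (SD, n = 4 each).

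Among the spe genes with few counts, the kinase gene spe-6 stood lower in every cpr-6 RNAi library but did not pass the test. This gene encodes a casein kinase-like protein that acts in the assembly of major sperm protein and in holding back sperm activation. It stood at 1.60, 2.36, 1.80 and 1.69 CPM in empty vector replicates 1 to 4 and at 0.87, 1.10, 1.11 and 0.60 CPM in cpr-6 RNAi replicates 1 to 4. Every cpr-6 RNAi library lay below every empty vector library, as for 1.25% of all genes tested. The log2 fold change was -0.99 ± 0.319 (SE) on 117 counts in all, with an unadjusted p of 0.00732 and an adjusted p of 0.997 in edgeR. It ran from -1.09 to -0.85 with each library left out in turn, and was -1.01 within replicates 1 and 2 and -1.02 within replicates 3 and 4. The difference did not pass the correction over all genes. The gene lies on chromosome III (11505535 to 11508919, plus strand).

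The spe genes of sperm and egg contact were near the limit of detection apart from spe-38 and spe-41. For spe-38, which encodes a membrane protein needed to fuse with the egg, levels were 3.47 ± 0.362 and 2.84 ± 0.660 CPM (SD, n = 4 each; log2 fold change -0.28, 95% interval -0.79 to 0.23). For spe-41, a calcium-permeable channel also called trp-3, they were 2.95 ± 0.582 and 2.54 ± 0.518 CPM (SD, n = 4 each; -0.22, 95% interval -0.77 to 0.32). Over the 8 libraries spe-9, a membrane protein gene of the same step, had 6 counts, spe-42 had 6 and spe-49 had 1. In the pathway that activates spermatids, spe-8, a tyrosine kinase gene, had 17 counts, spe-27 had 45, spe-19 had 3, and spe-12, spe-29 and spe-43 had 1 each. The genes of this step and pathway given by counts alone could not be tested. In Ensembl release 115, exons of spe-38 overlap those of impt-1 on the same strand by 58 bases. Exons of spe-27 overlap those of C06E7.88 on the same strand by 61 bases. The part of these overlaps in the counts was not tested.

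Genes of other steps in making sperm were also sparse. The myosin gene spe-15, which sorts the contents of the dividing spermatocyte, stood at 1.32 ± 0.363 and 1.42 ± 0.518 CPM (SD, n = 4 each) with a log2 fold change of 0.12. Its span overlaps gst-25 on the opposite strand. The presenilin-like gene spe-4 had 34 counts, spe-10, a gene of organelle shape, had 9 and spe-26, of the cytoskeleton, had 5. The gene of the paternal factor spe-11 had 17 counts. In sum the 21 spe genes outside the group with many counts stood at 12.4 ± 1.26 CPM (SD, n = 4) with empty vector and 10.6 ± 1.27 CPM (SD, n = 4) with cpr-6 RNAi, and ranged over 1.36-fold, against 4.11-fold for the msp genes.

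The library that was lowest or highest was largely shared within the msp and nspd families. Among members with 40 or more counts, empty vector replicate 1 was the lowest library for 15 of 22 msp, 6 of 6 nspd, 3 of 6 ssp, 2 of 2 gsp and 2 of 10 spe genes. The highest was cpr-6 RNAi replicate 4 for 17 of 22 msp and 5 of 6 nspd genes, but for 1 of 6 ssp, 0 of 2 gsp and 1 of 10 spe genes. For 5 of the 10 spe genes that library was the lowest, and for 5 of the 22 msp genes the lowest was cpr-6 RNAi replicate 3. These counts describe the libraries and carry no test.

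**Figure D4:**
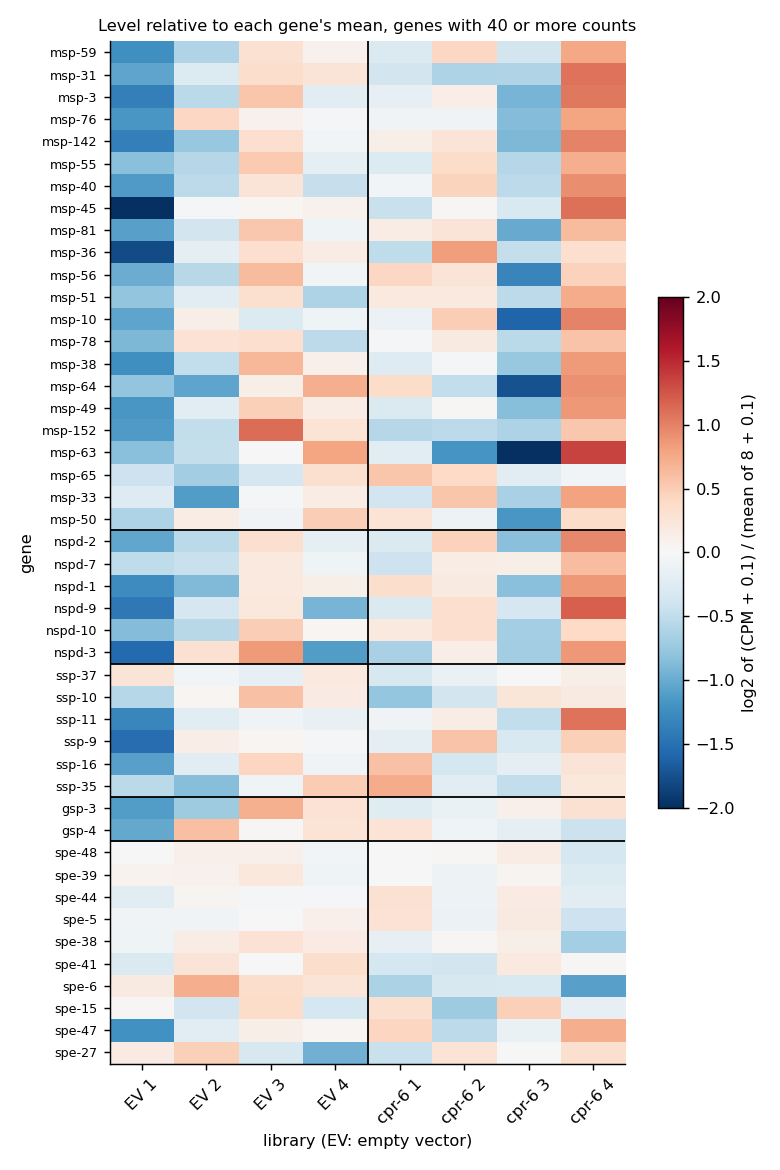
Level of each sperm gene with 40 or more counts (rows, by family) in the 8 libraries (columns), as the log2 of CPM over the gene's mean of 8 libraries with 0.1 CPM added to both. Most msp and nspd rows are blue in empty vector replicate 1 and red in cpr-6 RNAi replicate 4, and most spe rows stay near 0.

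The sperm genes lie unevenly in the genome. By the positions of the deposited table (WBcel235), 35 of the 80 genes are on chromosome IV, or 43.8%, against 16.3% of all protein-coding genes. None of the 80 is on chromosome X, which holds 2789 of 20191 protein-coding genes. The msp genes are confined to chromosomes II and IV. A stretch of chromosome II from 4785861 to 5810342 holds 13 msp and 2 nspd genes. On chromosome IV, 9 msp genes lie among 14 sperm genes from 4994324 to 5865918, and 9 more among 17 sperm genes from 9688982 to 10738658.

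Other genes taken as sperm genes, outside the naming rule, were looked at from written lists. Of 19 other sperm genes in the table, 9 could be tested, and 7 lay above 0 and 2 below. Of the 9, 0 were called in edgeR, DESeq2 or limma voom, against 0.00915% of all genes tested in edgeR. An unadjusted p under 0.05 was found for 0 of the 9, against 3.85% of all genes tested in edgeR. Their median log2 fold change was 0.26, and 50.2% of all genes tested lay above 0. Leaving out empty vector replicate 1 turned the median to -0.03, with 4 genes above 0 and 6 below. It was 0.06 with cpr-6 RNAi replicate 4 left out and 0.57 with empty vector replicate 3 left out. The sperm gene ssq-1 stood at 4.05, 7.90, 11.9 and 10.2 CPM with empty vector and 9.92, 10.4, 8.997 and 16.2 CPM with cpr-6 RNAi. Its lowest and highest libraries were those of the msp genes, and its groups overlapped (log2 fold change 0.40, 95% interval -0.22 to 1.02). The gene ssup-72 held 3686 of the list's 7267 counts. It ran from 42.4 to 50.1 CPM with empty vector and from 35.9 to 49.8 CPM with cpr-6 RNAi. Whether its RNA came from sperm was not tested. Next by counts, spp-2 was lowest in cpr-6 RNAi replicate 1, at 8.57 CPM, and highest in cpr-6 RNAi replicate 4, at 20.2 CPM. Of the list's 11 genes with 40 or more counts, 7 were lowest in empty vector replicate 1. The highest library was cpr-6 RNAi replicate 4 for 4 of the 11 and empty vector replicate 3 for 4. The genes ssq-2 and ssq-3 were among those highest in empty vector replicate 3. Of 9 other genes of sperm activation and guidance, 5 could be tested. Of these 5, 0 were called by edgeR, DESeq2 or limma voom, against 0.00915% of all genes tested in edgeR. An unadjusted p under 0.05 was found for 0 of these 5, against 3.85% of all genes tested in edgeR. One of them was gipc-1, whose product helps set sperm competitiveness, with 0.58 (95% interval -0.20 to 1.37). Its value ran from 0.41 to 1.16 with a library left out, highest when empty vector replicate 3 was.

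Genes that decide between sperm and oocyte fate had counts in every library, and their sum was lowest in cpr-6 RNAi replicate 4, where that of the msp genes was highest. All 18 on the list could be tested, 3 above 0 and 15 below, where 50.2% of all genes tested lay above 0. Of the 18, 0 were called by edgeR, DESeq2 or limma voom, against 0.00915% of all genes tested in edgeR. An unadjusted p under 0.05 was found for 0 of the 18, against 3.85% of all genes tested in edgeR. Their median log2 fold change was -0.06. Leaving out cpr-6 RNAi replicate 4 turned it to 0.03, with 11 above 0 and 7 below. The RNA-binding regulator fog-1, needed for germ cells to become sperm, stood at 90.4, 107, 104 and 99.6 CPM with empty vector and 111, 98.9, 105 and 69.3 CPM with cpr-6 RNAi, with cpr-6 RNAi replicate 4 lowest. Its partner fog-3 stood at 0.96 to 1.89 CPM with empty vector and 1.35 to 1.95 CPM with cpr-6 RNAi. Both fog-1 and fog-3 were chosen here after their values were seen. The summed level of the list was 1351 CPM in cpr-6 RNAi replicate 4, and 12 of the 18 genes were lowest there. One of the 18, elt-1, was highest there at 34.9 CPM. The genes puf-8 and gld-1 held 39675 and 23836 of the list's 148112 counts.

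Marker lists of other cells and stages also stood apart in the library where the msp genes were highest. In cpr-6 RNAi replicate 4 the summed oocyte and eggshell genes stood at 33494 CPM, against 37870 to 40025 CPM in the other 7 libraries, and 25 of 29 genes were lowest there. Genes of germline division and meiosis stood at 1713 CPM there, against 2163 to 2435 CPM, and 22 of 23 were lowest. Genes of the larval moult stood highest there, at 354 CPM against 190 to 259 CPM. In empty vector replicate 1, where the msp genes were lowest, these lists stood at 39699, 2282 and 259 CPM, the last being the highest of the remaining libraries. Of the 3 lists, all 29 oocyte, all 23 germline and 16 of 20 moult genes could be tested. Of those tested, 0 were called by edgeR, DESeq2 or limma voom, against 0.00915% of all genes tested in edgeR. In edgeR, 1 oocyte and 1 germline gene had an unadjusted p under 0.05, against 3.85% of all genes tested.

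Genes of the male body were sparse where they define male neurons. Of 18 genes on the male list, clec-218 and clec-187 held 8587 and 1166 of 10923 counts. The male neuron genes lov-1 and pkd-2 had 19 and 6 counts over the 8 libraries, and cwp-1, cwp-2, cwp-3, cwp-4 and cwp-5 had 3, 10, 0, 47 and 1. The list summed to 101 to 153 CPM with empty vector and 112 to 168 CPM with cpr-6 RNAi. It was highest in cpr-6 RNAi replicate 4, where the msp genes were highest too, at 1.27 times its mean over the 8 libraries. Of its 6 genes with 40 or more counts, 4 were highest there. Genes first transcribed in the embryo summed to 12.8 to 20.0 CPM with empty vector and 15.6 to 20.3 CPM with cpr-6 RNAi. They were also highest in cpr-6 RNAi replicate 4, at 1.22 times their mean. In empty vector replicate 1, where the msp genes were lowest, they stood almost as high, at 1.21 times their mean. The part of these lists in the sperm gene levels was not tested. Only 5 of the 18 male genes and 2 of the 12 embryo genes could be tested. Of those tested, 0 were called by edgeR, DESeq2 or limma voom, against 0.00915% of all genes tested in edgeR. An unadjusted p under 0.05 in edgeR was found for 0 of them, against 3.85% of all genes tested.

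**Figure D5:**
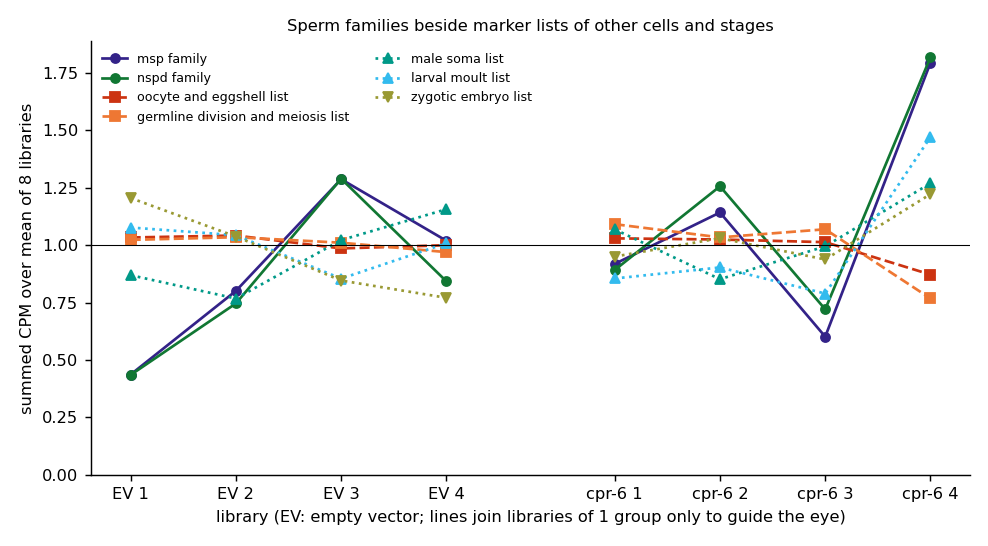
Summed CPM of the msp and nspd families and of 5 marker lists in each library, divided by each list's mean over the 8 libraries (vertical axis). Lines join the libraries of a group to guide the eye only. In cpr-6 RNAi replicate 4 the msp and nspd families lie at 1.79 and 1.82 times their means, and the oocyte and germline lists lie below 1.

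The authors' deposited table holds p-values for 53 of the 80 genes. Its log2 fold changes came within 0.001 of a DESeq2 model with treatment and a term for replicates 1 and 2 against 3 and 4 for 13217 of 13217 genes, and of a model with treatment alone for 2506. No label says what that term stands for. Of the 53 genes in the authors' deposited table, 3 had an unadjusted p under 0.05, against 3.35% of the 13217 genes with a p there. None of the 53 had an adjusted p under 0.05 in the authors' deposited table, against 0.053% of those genes. The authors' deposited table gives spe-6 a log2 fold change of -1.02 (p 0.0225), nspd-4 one of 2.06 (p 0.0459) and ssp-19 one of 1.67 (p 0.0465), each with an adjusted p of 1.00. The last 2 of these fell below the count filter used here, with 26 counts for nspd-4 and 36 for ssp-19. By the counts, nspd-4 stood at 0.146 ± 0.174 and 0.501 ± 0.268 CPM (SD, n = 4 each), and ssp-19 at 0.216 ± 0.181 and 0.673 ± 0.316 CPM (SD, n = 4 each).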

How the data were processed

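For each gene the authors deposited raw counts in 8 libraries, beside normalized counts and, from their own comparison, log2 fold changes, test statistics (a score per gene) and p-values. The submitters' processing notes name the build WBcel235 and the tools HTSeq 0.12.4, TopHat2 2.1.1, cutadapt 2.10 and DESeq2 1.30.1. No source used here gives the annotation release, the use of strand or molecular identifiers, or the handling of reads that fit several genes.

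From the deposited counts, one model over all genes was fitted in edgeR 4.0.16 (R 4.3.3), with TMM scaling and a robust quasi-likelihood fit. Low genes were left out by filterByExpr (minimum count 10). The two-sided test of treatment was adjusted by Benjamini-Hochberg over 10932 genes, with a threshold of 0.05. Family sums carry no test. DESeq2 1.42.0 and limma 3.58.1 voom were alternatives. On simulated counts for this comparison, edgeR recovered 59 of 67 genes changed 2-fold and 32 of 67 changed 1.5-fold. The changed genes were drawn from all genes tested. Sperm genes had wider intervals than the median gene, so these numbers do not give the recovery for sperm genes.

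Members and lists were chosen with earlier results of these data known. Named were cpr-6, the sperm genes that passed the filter, those with the highest counts in each family, and up to 4 genes with the highest counts per list. Other named genes, among them the sperm genes with few counts and the male neuron genes, were chosen after their values were seen. Of the genes written in the lists, 19 of 26 other sperm genes, 9 of 11 activation genes and 18 of 19 male genes were found by name. The series text calls the libraries biological repeats and no label names separate cultures, so the p-values speak only of variation among these libraries, which may be technical. Intervals and floors cover counting error only, and amplified copies may be counted.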

Additional observations from a re-analysis of the deposited data

Results flagged for a closer look

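In 8 of 108 groups of 4 libraries, 1 library stood apart from the other 3 by a gap test (Dixon's test at 95%), and chance alone gives about 1 in 20. In empty vector replicate 1 these were low levels of msp-45 (0.533 CPM against 2.57 to 2.82 CPM), ssp-9 (0.746 CPM against 2.26 to 2.57 CPM) and ssp-11 (0.959 CPM against 2.16 to 2.40 CPM). In cpr-6 RNAi replicate 4, msp-31 was high at 8.34 CPM against 2.50 to 2.99 CPM. That library also had low sums for the regulators of sperm fate (1351 CPM against 1859 to 1894 CPM) and for oocyte and eggshell genes (33494 CPM against 38919 to 39553 CPM), and a high sum for genes of the larval moult (354 CPM against 190 to 217.5 CPM). In cpr-6 RNAi replicate 3, the 21 spe genes with few counts summed to 12.5 CPM against 9.82 to 10.1 CPM.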

How the results depend on the processing

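No sperm gene was called under any of the 16 alternatives (RLE scaling, library size only, no filter, a loose filter, DESeq2, limma voom, the replicate block, a term for replicates 1 and 2 against 3 and 4, and each library left out). Over all genes, edgeR called 1 gene, against 28 with no low-count filter, 5 in DESeq2, 2 with the replicate block and 1 to 3 with a library left out. Among these, 2 were called without cpr-6 RNAi replicate 2 and 3 without cpr-6 RNAi replicate 4. The replicate numbers were not taken as pairing the libraries, since same-numbered libraries deviated with correlations of -0.03, 0.12, 0.02 and 0.25. With the block, 0 sperm genes were called and their median log2 fold change was 0.22.

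The median of the sperm genes tested was 0.18 to 0.22 under other scalings, models and terms, 0.10 over 75 genes with no filter and 0.11 over 57 with a loose filter. It ran from 0.02 to 0.47 with a library left out, lowest without empty vector replicate 1 and highest without empty vector replicate 3. The log2 ratio of summed msp levels was 0.30 with the authors' normalized counts and 0.18 from medians, and that of summed nspd levels was 0.48 and 0.44.

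Some genes near 0 changed sign, none of them past the threshold at any setting. The log2 fold change of gsp-3 was -0.0045 with library size only and -0.0096 with no filter, and in limma voom that of msp-31 was -0.041 and that of msp-64 was -0.12. With a library left out, log2 fold changes crossed 0 for msp-3 (-0.062 to 0.80), msp-31 (-0.48 to 0.29), msp-36 (-0.036 to 0.53), msp-38 (-0.30 to 0.47), msp-49 (-0.33 to 0.34), msp-56 (-0.023 to 0.57), msp-64 (-0.40 to 0.51) and msp-76 (-0.24 to 0.33). They also did for msp-78 (-0.0051 to 0.40), gsp-3 (-0.22 to 0.38), gsp-4 (-0.42 to 0.032), spe-5 (-0.091 to 0.13), spe-15 (-0.072 to 0.32), spe-48 (-0.14 to 0.017) and fog-1 (-0.14 to 0.064). Why these signs changed was not tested. Depth limits what can be said of the 43 sperm genes that were too sparse to test.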
